A study of Rattus norvegicus with 32 samples.

Results

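Ribosomal protein genes were described in the hippocampus of 65-day-old Sprague-Dawley rats, with every row of the count tables kept apart where several rows carried the same gene symbol. Members were the rows whose symbol was Rpl or Rps followed by a number and an optional letter and digit, or was Rplp0, Rplp1, Rplp2 or Rpsa. This gave 91 rows under 85 symbols, out of 32883 rows in each table. The rule used no measured value. Of the 91 rows, 56 belonged to the large and 35 to the small ribosomal subunit. Standard ribosomal proteins made up 74 symbols, and 11 rows carried the symbol of a paralogue or a like gene such as Rpl22l1 or Rps10l1. The standard proteins Rps13, Rps26 and Rpl22 had no row under their own symbol. Rpl21, Rpl32, Rpl7a and Rps27a had more than 1 row each, 10 rows in all.

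The study asked how iron deficiency around birth and choline given to the pregnant dam alter the adult hippocampus. Pups came from dams kept on an iron-sufficient diet (IS) or on an iron-deficient diet from early gestation until the first postnatal week had ended, after which all were fed an iron-sufficient diet, so that the adults had been deficient only early in life (FID in males, labelled ID in females). Part of the dams of each diet received choline in the diet during gestation (ISch, FIDch and IDch). RNA-seq libraries came from 4 rats per group and sex, 32 libraries in all, and all rats were wild-type animals of the same strain and age. The 16 male libraries formed sequencing batch I, with RNA extracted by an RNAqueous kit, and the 16 female libraries formed batch II, with RNA extracted by an RNeasy kit, so sex, kit and batch cannot be told apart and diet groups were compared within each batch. For males the methods state that each experiment used 1 male of a litter. They also state that the RNA-seq data analysed came from an earlier study. For females no litter was given, and p-values there measure only the spread between these samples. The hippocampus holds many cell types, and in such bulk samples fewer cells of a type and less RNA per cell cannot be told apart.

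Ribosomal proteins are the protein subunits of the cytoplasmic ribosome, and most standard ones are made in about equal number, because a ribosome takes up a fixed set. Mammalian genomes hold, beside the gene with introns, many retroposed copies of the same messenger RNA, and short reads from such copies are hard to place. Many of these messenger RNAs start with a C followed by a run of pyrimidines, the terminal oligopyrimidine tract, through which their translation responds to nutrient and growth signals. The tract acts on translation, which RNA-seq does not measure.

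Of the 85 symbols, 65 had an entry among the RefSeq promoter windows of the GRCr8 rat assembly. The motif was searched on the strand of the gene as a C followed by at least 4 letters that are each C or T, beginning exactly at the annotated start. It was found for 22 member symbols (33.8%), against 854 of all 27457 symbols (3.11%). Allowing a start within 5 bases to either side gave 38 member symbols (58.5%) against 5205 of all symbols (19.0%). Short windows, 12 bases before and 18 bases from the start on, are shown for the genes whose values carry the comparisons, with the pyrimidine run in capitals.

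The ones with a run exactly at the start included Rplp1 on the minus strand at chr8:71290855-71290884, Rpl37a on the plus strand at chr9:81748079-81748108 and Rps15 on the minus strand at chr7:10068098-10068127.
Rplp1: ggcgcatgtgatCCTTTCCTCagctgccgc
Rpl37a: tgcccgttgcgtCTCTTCCTCTTCgggctt
Rps15: tgacaccgcttcCTTTTCCCagcagccgcc
In Rpl12, on the plus strand at chr3:36661928-36661957, the run began 1 base before the start, and in Rps9, on the minus strand at chr1:74430420-74430449, and Rps10, on the minus strand at chr20:5700727-5700756, it began 1 base after it.
Rpl12: gcaacatccgtCTTTTCggctttcggttcg
Rps9: ggcggccacgtttCTCTTTgtcacgggcct
Rps10: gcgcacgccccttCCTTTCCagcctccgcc
Rpl41, on the minus strand at chr7:1563480-1563509, and Rps2, on the plus strand at chr10:14251836-14251865, had no such run that began within 5 bases of the start. In Rps2 a longer stretch of C and T letters began further upstream and ended on the start base, which the search did not count.
Rpl41: ggctcggaagtgacgacaccaagcacgcca
Rps2: cttctttttcttcgggaaaacacgtgagtc
Genes with and without a run that began within 5 bases of the start occurred among the rows with higher counts in male FIDch than in male FID, described further on. A match is a match of letters and was not tested as a functional tract.

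Male libraries held 3515806 to 9517503 counts (median 8007907) and female libraries 18439999 to 26616318. The lowest was male FIDch 2, and the next lowest male library, IS 3, held 6655242 counts. The 3 counts that a count of 0 allows came to 0.315 to 0.853 CPM (counts scaled to a fixed library total) in males and 0.113 to 0.163 CPM in females, a limit that covers counting error only. Levels below are CPM scaled by the trimmed mean of M-values (TMM) over the 16 libraries of a batch and are not corrected for gene length. Markers of excitatory hippocampal neurons were present in every library (Slc17a7, the vesicular glutamate transporter, at 2120 to 2530 CPM). The male FID 4 library stood apart, with choroid plexus markers summing to 408 CPM (7 of 8 with a count) against 3.26 to 20.4 CPM in the other male libraries, nearly all of it from Ttr, the transthyretin gene of the choroid plexus, at 350 CPM.

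Member rows together took a small share of each library. In males that share of all counts was 0.629% ± 0.0864 (SD, n = 4) for IS, 0.606% ± 0.0192 for ISch, 0.569% ± 0.0396 for FID and 0.623% ± 0.0246 for FIDch. The highest male share, 0.747%, was that of IS 1, and the groups overlapped. In females the share was 0.900% ± 0.0407 in IS, 0.926% ± 0.0293 in ISch, 0.901% ± 0.0327 in ID and 0.963% ± 0.0934 in IDch, and its highest value, 1.10%, came from IDch 4. That library also had the highest sum of blood markers, 366 CPM against 102 to 304 CPM in the other female libraries. Rows with the most counts in both batches were Rpl3, Rpl4, Rpl5, Rplp0 and Rpsa, of which Rplp0 anchors the stalk that recruits elongation factors and Rpsa is also known as the laminin receptor.

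Several standard ribosomal proteins were nearly without counts, although a ribosome needs each of them. In males 8 standard symbols had under 1 CPM over the summed counts of the 16 libraries. Rpl8 and Rpl39 were the lowest of them, at 0.00809 CPM each. In females 7 symbols were under 1 CPM by the same measure, from Rpl39 at 0.0141 CPM to Rps29 at 0.949 CPM. Rpl35a, Rpl37, Rpl38, Rpl39, Rpl8 and Rps29 were low in both batches, Rplp2 (0.534 CPM) and Rps6 (0.947 CPM) in males, and Rpl9 (0.280 CPM) in females. How the counting treated reads that match several copies was not given in the sources used here, and neither was its strand setting, so the level of every row here is uncertain where a near-identical copy or an overlapping gene exists. Of the 83 symbols found in the reference annotation, 14 overlapped another gene, among them Rps9, which overlapped Pirb, and Rps6, which overlapped Dennd4c.

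The filter on low counts over the 4 groups of a batch was passed by 77 rows in males and 83 in females. The rows that failed it in males were Rpl21 (ENSRNOG00000029410 and ENSRNOG00000049848), Rpl30l1, Rpl32 (ENSRNOG00000032605), Rpl35a, Rpl37, Rpl38, Rpl39, Rpl39l, Rpl3l, Rpl7a (ENSRNOG00000047737), Rpl8, Rplp2 and Rps29. In females they were Rpl21 (ENSRNOG00000049848), Rpl30l1, Rpl35a, Rpl37, Rpl38, Rpl39, Rpl8 and Rpl9. Over the 16 libraries of a batch, diets included, the median coefficient of variation was 12% over the 75 male rows with a mean of 1 CPM or more and 7.17% over 80 such female rows. Within diet groups (pooled SD over the batch mean) the medians were 9.67% and 7.32%. Within-group variation was over 50% for Rps9 in males (77.0%) and for Rplp2 (162%) and Rps9 (73.7%) in females, and it was 47.1% for female Rpl30.

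Each pair of groups was compared with the edgeR quasi-likelihood test over all genes that passed the filter in that pair. A row is called higher or lower at the criterion, after the study, when its log2 fold change was over 0.2 in size with an unadjusted p under 0.05. "Rose" and "fell" are kept for rows whose p, adjusted over all genes tested by the method of Benjamini and Hochberg, was also under 0.05. Comparisons within a batch share groups, so their counts are not independent, and their values are set side by side only.

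**Figure D1:**
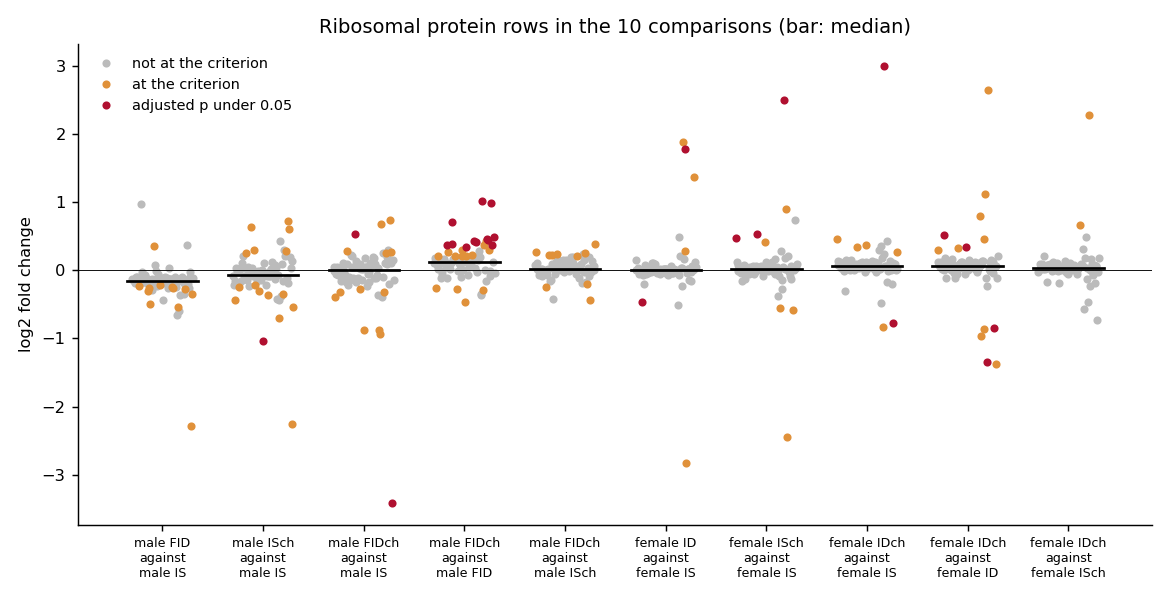
Log2 fold changes of the tested ribosomal protein rows in the 10 comparisons between diet groups, 5 per batch, with 1 point per row, colours for rows at the criterion and with an adjusted p under 0.05, and a bar at the median. The male FID against IS points lie mostly below 0 (71 of 76 rows). The male FIDch against FID points lie mostly above 0 (54 of 74 rows), as do those of female IDch against ID (61 of 81 rows). Female medians lie between 0.00 and 0.07.

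In the male hippocampus, most ribosomal protein rows had a slightly lower level after early iron deficiency than in IS, and no single row passed the adjusted test. Of 76 rows tested in FID against IS, 71 had a negative and 5 a positive fold change, with a median of -0.16 (log2), while over all genes the median was -0.01 and 52.7% were negative. At the criterion 11 members (14.5%) were lower and 1 (1.32%) was higher, beside 2.28% and 2.34% of all genes tested. The edgeR quasi-likelihood test with Benjamini-Hochberg adjustment called 0 members, as it called 0% of all genes, with 14 members at an unadjusted p under 0.05, and DESeq2 also called 0. The members lower at the criterion were Rps9 (-2.28), Rpl36a (-0.53), Rplp1 (-0.50), Rps21 (-0.35), Rpl22l1 (-0.31), Rps28, Rpl31, Rps15, Rpl37a, Rpl28 and 1 row of Rps27a, and the 1 higher was Rpl12 (0.35). The count of 12 rested on single libraries: it was 3 without FID 4, the library with the choroid plexus transcripts, 5 without IS 1, 6 without FID 3 and 36 without IS 3. The median stayed negative when each library was left out in turn, between -0.22 and -0.08. What part the choroid plexus transcripts have in this was not tested.

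Among iron-deficient males, choline supplementation of the dam went with more ribosomal protein RNA in the larger number of rows, and 12 rows rose. Of 74 rows tested in FIDch against FID, 54 had a positive fold change and the median was 0.12 (all genes -0.00). At the criterion 22 members (29.7%) were higher and 4 (5.41%) lower, beside 5.74% higher and 7.24% lower among all genes. The adjusted p was under 0.05 for 12 members, all higher, and for 1.28% of all genes. With 1 library left out the 12 calls became 9 without FID 2, 8 without FIDch 2, 3 without FID 1, 2 without FID 3, 2 without FIDch 3 and 1 without FID 4, FIDch 1 or FIDch 4, while the count at the criterion stayed between 23 and 32 and the median between 0.09 and 0.18. Choroid plexus markers summed to 3.26 to 5.60 CPM in the FIDch libraries, against 408 CPM in FID 4. Markers of other kinds also met the criterion in this comparison. Of the mitochondrially encoded genes 1 of 13 was higher and 4 lower (2 adjusted calls). Higher were 2 of 8 microglia genes, 1 of 6 blood genes and 1 of 6 oligodendrocyte genes (Mbp, of myelin, 0.29). Of astrocyte genes 1 of 6 was lower (Aqp4, a water channel, -0.27), with a list median of 0.02. Of 6 thalamus genes 1 was higher and 1 lower, and 1 of 7 striatum and 1 of 10 excitatory neuron genes were lower. The part of these markers in the result was not tested.

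Rplp1, an acidic protein of the ribosomal stalk, stood out among them. Its level was 75.3, 67.6, 68.6 and 65.7 CPM in the 4 male FID libraries and 123, 110.2, 112 and 109.9 CPM in FIDch. The FIDch libraries were all above the FID libraries, with no overlap. Rplp1 rose by 0.71 in log2 (SE 0.0642, edgeR adjusted p = 0.000685), from 69.3 ± 4.18 to 114 ± 6.26 CPM (SD, n = 4 each). It kept an adjusted p of at most 0.0085 whichever library was left out. In male IS it stood at 158, 80.9, 68.8 and 80.8 CPM, where IS 1 lay far above the others, and in ISch at 89.6 to 106 CPM.

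**Figure D2:**
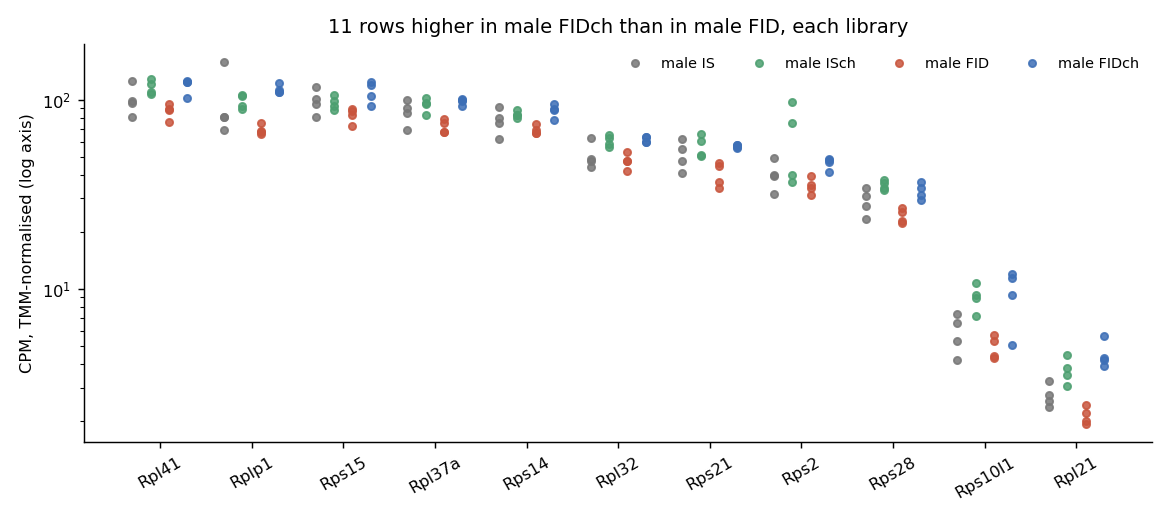
TMM-scaled CPM, on a log axis, of 11 of the ribosomal protein rows that rose in male FIDch against FID, in the 16 male libraries by diet group, with 1 point per library. The FIDch libraries of Rplp1, at 109.9 to 123 CPM, lie above the FID libraries, at 65.7 to 75.3 CPM.

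The other rows that rose in FIDch against FID changed less or had fewer counts. On the large subunit these were Rpl37a, which is a small zinc-binding protein, Rpl41, the shortest ribosomal protein, the Rpl32 row ENSRNOG00000010746 and the minor Rpl21 row ENSRNOG00000032803. Rpl37a was at 78.9, 75.3, 67.3 and 67.8 CPM in FID and 101, 92.6, 99.7 and 97.8 CPM in FIDch, without overlap, and rose by 0.43 in log2 (edgeR adjusted p = 0.0110). Rpl41 was at 88.7, 94.7, 87.9 and 75.9 CPM in FID and 124, 102, 125 and 124 CPM in FIDch, and rose by 0.45 (edgeR adjusted p = 0.0216). Its FIDch 2 value lay well below the other 3 but above every FID value. On the small subunit, Rps21 rose by 0.48 (edgeR adjusted p = 0.0342), Rps28 by 0.45 (0.0394), Rps15 by 0.42 (0.0457), Rps2 by 0.39 (0.0473) and Rps14 by 0.34 (0.0378). Rps2 lies near the place where messenger RNA enters the small subunit, and Rps14 and Rps28 near the place where it leaves. The Rpl32 row ENSRNOG00000010746 rose by 0.37 (edgeR adjusted p = 0.0378, at most 0.142 without 1 library). These 5 small-subunit rows each lost the adjusted call when some single library was left out, with largest adjusted p-values of 0.132 to 0.176, and so did Rpl37a (0.0721) and Rpl41 (0.0981).

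Rows that went the other way in FIDch against FID did so at the criterion without passing the adjusted test. They were Rpl17 (-0.46), Rpl30 (-0.29), Rpl7l1 (-0.27) and the main Rpl21 row ENSRNOG00000000957 (-0.26). Among iron-sufficient males, in ISch against IS, 6 members (8.00%) were higher and 10 (13.3%) lower at the criterion of 75 tested, beside 4.52% and 3.54% of all genes. The median was -0.07 and turned to 0.02 without IS 1. The adjusted test called 1 member, Rpl17, and 0.208% of all genes. The largest differences at the criterion were those of Rps9 (-2.25), Rpl17 (-1.03) and the Rpl7a row ENSRNOG00000049097 (0.72). Rps2 had 97.1, 75.3, 36.9 and 40.1 CPM in the ISch libraries and 31.8 to 48.8 CPM in IS. The high values belong to ISch 1 and 2, which with FIDch 2 carry library names of another form in the labels. Without those 3 libraries ISch against IS gave 1 member higher and 12 lower. The 13 mitochondrially encoded genes moved in the same comparison, with 2 higher and 9 lower at the criterion (5 adjusted calls). They summed to 59240 to 67170 CPM in ISch against 68820 to 77080 CPM in IS, and their part in the result was not tested.

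In FIDch against IS, 6 members (8.00%) were higher and 8 (10.7%) lower at the criterion of 75 tested, beside 2.91% and 3.21% of all genes. The median of 0.01 had no stable sign, ranging from -0.06 without IS 3 to 0.09 without IS 1. The adjusted test called 2 members, Rpl12 and Rps9, and 0.131% of all genes. The other members lower at the criterion included Rpl10l (-0.94), Rpl17 (-0.88), Rpl36a (-0.87) and both Rps27a rows (-0.32 each), and Rps10l1 (0.74) and the minor Rpl21 row ENSRNOG00000032803 (0.68) were higher. Without IS 1 the count of 14 at the criterion became 24 and without IS 3 it became 22. Of the 13 mitochondrially encoded genes 1 was higher and 7 were lower here (1 adjusted call). They summed to 57200 to 68260 CPM in FIDch, and their part in the result was not tested. In FIDch against ISch, where both groups had choline, 7 members (9.59%) were higher and 3 (4.11%) lower of 73 tested, beside 3.09% and 5.03% of all genes. The largest were an Rpl7a row (-0.43), Rpl13a (0.38) and Rpl10a (0.27). The edgeR adjusted test called 0 members and 0.0430% of all genes, with 16 members at an unadjusted p under 0.05, and DESeq2 called 0. Without FIDch 1 the count of 10 at the criterion was 5.

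Rpl12, which forms the base of the stalk on the large subunit, was the member that rose in 1 comparison of each batch. Male levels were 25.5, 23.7, 21.4 and 25.9 CPM for IS, 33.3, 31.5, 26.0 and 28.3 CPM for ISch, 30.6, 33.2, 31.4 and 28.7 CPM for FID and 35.3, 34.7, 35.4 and 34.1 CPM for FIDch. Every library of the other 3 groups was above every IS library. Rpl12 rose by 0.53 in log2 in FIDch against IS (SE 0.0875, edgeR adjusted p = 0.0366), and the largest adjusted p without 1 library was 0.159. Female levels were 83.7, 75.3, 88.3 and 80.3 CPM in IS, 113, 119, 118 and 125 CPM in ISch, 78.3 to 88.6 CPM in ID and 97.5, 115, 77.2 and 124 CPM in IDch. The ISch libraries were all above the IS and ID libraries, and IDch spread over both ranges. Rpl12 rose by 0.53 in ISch against IS (SE 0.0546, edgeR adjusted p = 0.000819) and kept an adjusted p of at most 0.00561 without any 1 library.

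Rpl17, which lines the exit tunnel of the large subunit, had opposite signs after choline in the 2 batches. In males it was at 134, 112, 61.7 and 82.1 CPM for IS, 43.8, 49.4, 48.3 and 50.4 CPM for ISch, 96.8, 71.8, 64.3 and 59.0 CPM for FID and 47.2, 34.7, 75.7 and 49.5 CPM in FIDch. The ISch libraries lay below every IS library and close together, whereas FIDch overlapped FID. Rpl17 fell by 1.03 in log2 in male ISch against IS (edgeR adjusted p = 0.0399, at most 0.159 without 1 library). In females the levels were 144, 143, 111 and 105 CPM in IS, 175, 173, 170 and 154 CPM in ISch, 117 to 145 CPM in ID and 146, 174, 171 and 159 CPM in IDch. Both choline groups lay above both groups without choline. Rpl17 rose by 0.35 in IDch against ID (edgeR adjusted p = 0.0463, at most 0.141 without 1 library), and its log2 difference of 0.42 in ISch against IS had an adjusted p of 0.0524. The difference between the female and the male effect of ISch against IS was 1.45 (SE 0.231, edgeR adjusted p = 0.00473).

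In the female hippocampus member medians lay between 0.00 and 0.07 in log2, and the adjusted calls came from a few rows. In each comparison of IDch with another group most rows had a positive fold change. In ID against IS, 4 of 81 members (4.94%) were higher and 2 (2.47%) lower at the criterion, beside 3.08% and 3.40% of all genes, with a median of 0.00. The adjusted test called 2 members, both rows of Rps27a, and 0.191% of all genes. In ISch against IS, 5 members (6.17%) were higher and 3 (3.70%) lower, beside 5.14% and 5.15% of all genes, and the adjusted test called Rpl12, Rpl30 and Rps10, all higher, and 2.54% of all genes. At the criterion in ISch against IS, 4 of 10 excitatory neuron markers were higher (2 adjusted calls) and 1 of 6 astrocyte markers (1 adjusted call). Of 7 blood markers 4 were higher, of 13 mitochondrially encoded genes 1 was higher and of 8 microglia markers 3 were lower, with 0 adjusted calls. The part of these markers in the result was not tested. The counts at the criterion were 3 in ID against IS without IS 2 (6 with all libraries) and 5 in ISch against IS without ISch 2 (8 with all libraries).

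In IDch against IS, 5 members (6.17%) were higher and 2 (2.47%) lower at the criterion, beside 4.16% and 4.82% of all genes, and the adjusted test called Rpl30 and Rps10l1 and 0.907% of all genes. Of the 81 rows, 70 had a positive fold change, with a median of 0.07, and this median ranged from -0.00, without IDch 4, to 0.10 when each library was left out. In IDch against ID, 8 members (9.88%) were higher and 5 (6.17%) lower, beside 5.59% and 7.07% of all genes. Of 81 rows, 61 had a positive fold change, with a median of 0.07, between 0.01 and 0.10 with 1 library left out. The adjusted test called 2 rows higher and 2 lower, and 2.28% of all genes. These 4 calls became 1 without ID 1 or ID 2, 2 without ID 3, ID 4 or IDch 1, and 7 without IDch 4. Markers also met the criterion here. Of 6 thalamus markers 3 were lower (2 adjusted calls), and of 6 astrocyte markers 2 were higher (2 adjusted calls). Of 10 excitatory neuron markers 1 was higher and of 13 mitochondrially encoded genes 1 was lower, with 1 adjusted call each. Lower with 0 adjusted calls were 2 of 7 striatum, 1 of 8 microglia and 1 of 4 choroid plexus markers. Their part in the result was not tested. In IDch against ISch, 2 members (2.47%), Rplp2 and Rps29, were higher and 0 lower, beside 1.82% and 2.75% of all genes. Of 81 rows, 60 had a positive fold change there, with a median of 0.04. The edgeR adjusted test called 0 members and 0.00689% of all genes, with 2 members at an unadjusted p under 0.05, and DESeq2 called 0. That count of 2 ranged from 0 to 4 when 1 library was left out.

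Rps27a, which encodes ubiquitin fused to a small-subunit protein, had a pair of rows that moved in opposite directions in females. The row ENSRNOG00000004426 was at 189, 164, 185 and 171 CPM in female IS and 125, 129.8, 123 and 136 CPM in ID, and the ranges did not overlap. The row ENSRNOG00000034246 was at 15.5, 27.8, 24.7 and 16.4 CPM in IS and 79.2, 57.9, 82.6 and 72.5 CPM in ID. All ID libraries of this row were more than double the highest IS library. In ID against IS the first row fell by 0.47 in log2 (SE 0.0508, edgeR adjusted p = 0.00243) and the second rose by 1.78 (SE 0.166, edgeR adjusted p = 0.000846). Both kept an adjusted p under 0.05 without any 1 library, at most 0.0166 and 0.00631, but in a fit of all 4 groups together both had an adjusted p of 0.0948.

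The sum of both Rps27a rows hardly differed, at 198.5 ± 10.6 CPM in female IS and 201.5 ± 9.38 CPM in ID. What differed was the share of the symbol's counts on ENSRNOG00000034246: 10.6% ± 3.11 in IS, 19.7% ± 10.3 in ISch, 36.1% ± 4.18 in ID and 13.7% ± 6.92 in IDch (SD, n = 4 each). Within ISch the libraries ISch 2 (31.9%) and ISch 4 (24.4%) lay above ISch 1 and 3 (11.8% and 10.7%), and within IDch the libraries IDch 2 and 3 (21.3% and 17.9%) lay above IDch 1 and 4 (8.16% and 7.55%). The difference in share between ID and IS was 25.5 percentage points (exact permutation test, two-sided, p = 0.0286, the smallest that 4 against 4 allows, adjusted over 110 such tests 0.210). In IDch against ID the first row rose by 0.51 (edgeR adjusted p = 0.0273) and the second fell by 1.35 (edgeR adjusted p = 0.0311), each with adjusted p-values of up to 0.0865 and 0.0889 without 1 library.

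Male libraries divided the same symbol in another way. ENSRNOG00000034246 held the larger share in every male library, 59.5% to 65.4%, with group means of 62.1% (IS), 63.5% (ISch), 62.7% (FID) and 61.9% (FIDch). The effect of iron deficiency on this row differed between the batches by 1.94 in log2, female minus male (SE 0.215, edgeR adjusted p = 0.000534), and this was the only member among the 82 tested there, beside 0.0396% of all genes. Since the sources do not say how reads shared between such rows were assigned, a change of level of 1 row cannot be told apart from a change in how its reads were assigned.

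**Figure D3:**
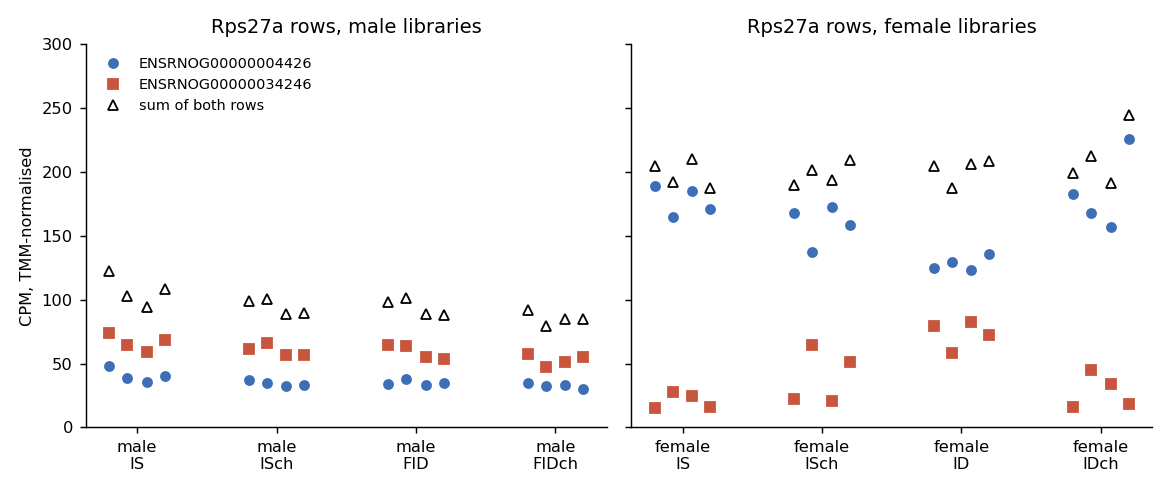
TMM-scaled CPM of both Rps27a rows (circles and squares) and of their sum (triangles) in the male and female libraries by diet group, with 1 point of each per library. In females the 4 ID libraries are lower on ENSRNOG00000004426 (123 to 136 CPM) and higher on ENSRNOG00000034246 (57.9 to 82.6 CPM) than the IS libraries, while the male groups lie close together.

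Rps10, a protein of the head of the small subunit, and the row Rps10l1, named after it, also moved against each other in females. Rps10 was at 61.4, 54.8, 62.3 and 60.3 CPM in IS, 68.3, 92.1, 84.0 and 87.9 CPM in ISch, 61.5 to 73.0 CPM in ID and 79.7, 69.9, 80.2 and 97.0 CPM in IDch. Rps10l1 was at 17.8, 14.7, 15.4 and 14.6 CPM in IS, 15.6, 10.2, 6.98 and 8.94 CPM in ISch, 15.4 to 18.6 CPM in ID and 7.71, 11.7, 8.01 and 9.24 CPM in IDch. The IDch libraries were all below the IS and ID libraries for Rps10l1, and ISch 1 kept a level like that of IS. Rps10 rose by 0.47 in ISch against IS (edgeR adjusted p = 0.0178, at most 0.0639 without 1 library), and its log2 difference of 0.45 in IDch against IS had an adjusted p of 0.0507. Rps10l1 fell by 0.84 in IDch against ID (edgeR adjusted p = 0.0114, at most 0.0458 without 1 library) and by 0.77 in IDch against IS (edgeR adjusted p = 0.0286, at most 0.0912).

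As a share of both rows, Rps10l1 took 20.8% ± 1.38 in female IS, 19.8% ± 1.16 in ID, 11.4% ± 4.94 in ISch and 10.2% ± 2.73 in IDch. In males the choline groups had the higher share instead, 17.7% in ISch and 17.4% in FIDch against 11.6% in IS and 10.8% in FID. Male Rps10l1 was at 4.41, 5.67, 5.30 and 4.32 CPM in FID and 9.24, 5.04, 11.9 and 11.4 CPM in FIDch. Thus FIDch 2, the male library with the fewest counts in all, lay within the FID range. Male Rps10l1 rose by 0.98 in FIDch against FID (edgeR adjusted p = 0.0457, at most 0.153 without 1 library). The effect of choline with iron deficiency against IS on Rps10l1 differed between batches by -1.498, female minus male (SE 0.279, edgeR adjusted p = 0.0211). This pair of rows was set together after its values were seen.

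**Figure D4:**
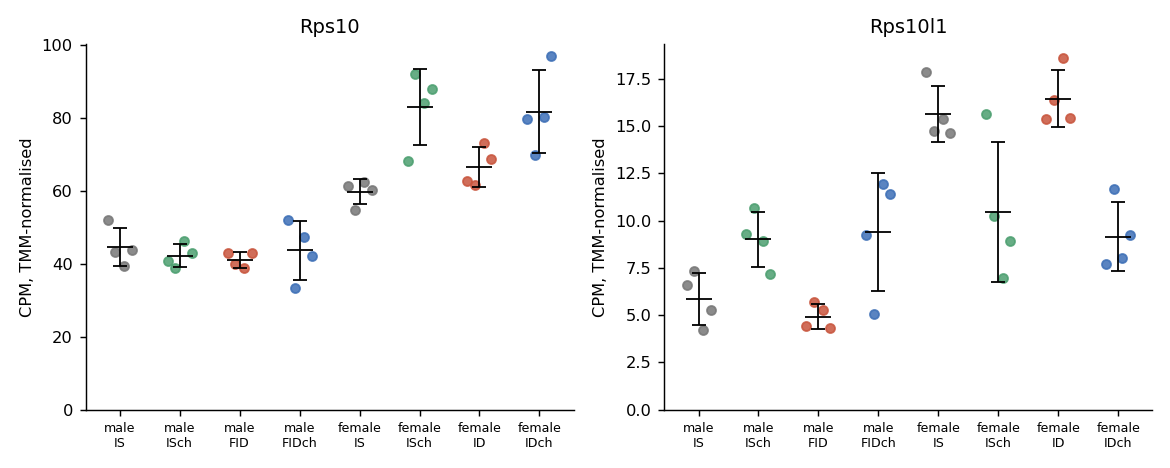
TMM-scaled CPM of Rps10 and Rps10l1 in male and female libraries by diet group, with 1 point per library and black bars for the mean and SD. Female IDch libraries of Rps10l1 (7.71 to 11.7 CPM) lie below the IS libraries (14.6 to 17.8 CPM), and 3 of 4 male FIDch libraries lie above the FID libraries.

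Rpl30, Rps9 and Rplp2 had the highest within-group variation of the female rows, and Rps9 the highest of the male rows, among rows with a mean of 1 CPM or more. Rpl30, a large-subunit protein, was at 7.38, 5.64, 5.79 and 6.22 CPM in female IS, 51.7, 6.58, 27.1 and 55.8 CPM in ISch, 29.3, 26.3, 30.2 and 6.29 CPM in ID and 52.5, 55.1, 54.2 and 37.3 CPM in IDch. All IDch libraries were above all IS and ID libraries, but ISch 2 and ID 4 had the low level of IS. Rpl30 rose by 3.0 in log2 in IDch against IS (SE 0.136, edgeR adjusted p = 4.44e-06), from 6.26 ± 0.785 to 49.8 ± 8.39 CPM, and this call held without any 1 library. It rose by 2.50 in ISch against IS (edgeR adjusted p = 0.0260, at most 0.0865 without 1 library) with overlapping groups, and in ID against IS its log2 difference of 1.88 had an adjusted p of 0.0631.

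Male Rpl30 lay between 20.9 and 34.98 CPM in 15 libraries and at 48.5 CPM in IS 1, and no male comparison passed the adjusted test. Female effects exceeded male ones by 2.87 in log2 for ISch against IS (SE 0.591, edgeR adjusted p = 0.0224) and by 3.39 for iron deficiency with choline against IS (SE 0.249, edgeR adjusted p = 1.06e-06).

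Rps9, a small-subunit protein at the messenger entry, was at 11.2, 8.61, 22.9 and 15.9 CPM in male IS and 2.02, 1.12, 1.10 and 1.04 CPM in FIDch. Male ISch had 0.726, 1.42, 9.53 and 0.947 CPM and FID had 0.826, 1.47, 8.71 and 0.841 CPM, so in both of these groups replicate 3 reached the IS range and the other 3 did not. Rps9 fell by 3.41 in FIDch against IS (edgeR adjusted p = 0.00198, at most 0.0199 without 1 library). Its differences in FID against IS (-2.28) and in ISch against IS (-2.25) were at the criterion but did not pass the adjusted test. Female Rps9 was at 3.64, 3.94, 3.29 and 28.5 CPM in IS, 4.94, 17.5, 40.0 and 3.804 CPM in ISch, 24.97, 26.8, 26.0 and 25.3 CPM in ID and 3.46, 10.01, 23.0 and 3.36 CPM in IDch. The ID libraries agreed closely, while the other 3 groups each held both low and high libraries. In females Rps9 differed at the criterion in ID against IS (1.37) and in IDch against ID (-1.38), with no adjusted p under 0.05.

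Rplp2, the partner of Rplp1 in the stalk, was at 10.2, 20.2, 0.570 and 0.547 CPM in female IS and 1.496, 2.15, 23.0 and 1.61 CPM in IDch. It lay between 0.880 and 2.52 CPM in ISch and between 0.968 and 1.26 CPM in ID. Its fold changes therefore rested on IS 1 and 2 and on IDch 3. At the criterion it was lower in ID against IS (-2.82) and in ISch against IS (-2.45) and higher in IDch against ID (2.65) and against ISch (2.28), and none passed the adjusted test.

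**Figure D5:**
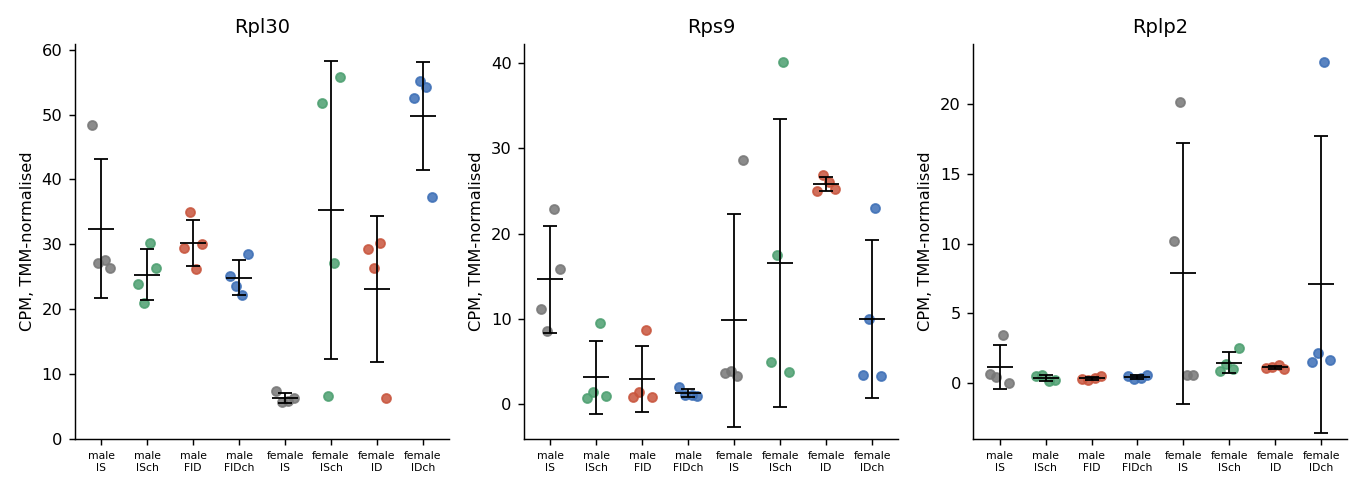
TMM-scaled CPM of Rpl30, Rps9 and Rplp2 in each library by diet group and batch on linear axes, with 1 point per library and black bars for the mean and SD. Low and high libraries occur within the same group, such as 6.58 and 55.8 CPM of Rpl30 in female ISch and 3.29 and 28.5 CPM of Rps9 in female IS.

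The other symbols with several rows had 1 leading row and minor copies. Rpl21, a large-subunit protein, had 4 rows, of which ENSRNOG00000000957 held 94.3% to 98.1% of the symbol's counts in males and 88.3% to 90% in females. The leading row was at 133, 111, 108 and 113 CPM in male IS, 109, 114, 96.7 and 101 CPM in FID, 85.3, 95.9, 80.9 and 84.6 CPM in ISch and 91.5, 97.4, 84.7 and 81.0 CPM in FIDch. The ISch libraries were all below the IS libraries, and the effect of ISch against IS on this row differed between batches by 0.42 in log2, female minus male (SE 0.0949, edgeR adjusted p = 0.0366). In the other rows together the male share was 2.40% in IS, 2.05% in FID, 4.30% in ISch and 4.99% in FIDch, and every choline library was above every library without choline. This difference came to 2.94 percentage points in FIDch against FID (exact permutation test, two-sided, p = 0.0286, adjusted over 110 tests 0.210). It was carried by ENSRNOG00000032803, which was at 2.20, 2.42, 2.001 and 1.92 CPM in FID and 3.92, 5.60, 4.19 and 4.30 CPM in FIDch and rose by 1.02 in log2 (edgeR adjusted p = 0.0367, at most 0.116 without 1 library). Its counts there were low, for instance 16 in FID 1 and 31 in FIDch 1.

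The Rpl21 row ENSRNOG00000029410 had 0 to 3 counts in each male library but 12.2 to 17.3 CPM in females, where it held 7.94% to 9.64% of the symbol. The row ENSRNOG00000049848 reached at most 0.280 CPM in any library. Rpl7a, a large-subunit protein, had most of its counts on ENSRNOG00000049097. Its other row, ENSRNOG00000047737, had counts in only 1 male library, ISch 4, and 1.38 to 2.99 CPM in females. There it held 15.6% to 17.4% of the symbol's counts, as means of the diet groups. The minor Rpl32 row, ENSRNOG00000032605, had 1 to 10 counts per male library and 2.32 to 3.95 CPM in females. Neither of these minor rows passed an adjusted test in a pairwise comparison.

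Paralogues and like genes were mostly lower in count than the standard rows. Rpl22l1, a paralogue of the large-subunit protein Rpl22, was at 23.5 to 39.1 CPM in males and 31.9 to 43.3 CPM in females. Rpl7l1 was at 26.8 to 38.2 CPM and 26.2 to 30.2 CPM, and Rps27l, a paralogue of Rps27, at 3.85 to 6.60 CPM and 4.94 to 8.05 CPM. Rps18l1 was higher in males, at 7.93 to 15.3 CPM, than in females, at 1.12 to 2.56 CPM, with no overlap between the batches, whose tables were scaled separately, whereas Rps19l2 lay at 7.30 to 11.96 CPM and 7.46 to 10.4 CPM. Rpl10l, Rpl3l, Rpl39l, Rps4y2 and Rpl30l1 stayed under 3 CPM in every library. At the criterion Rpl10l was lower in female IDch against IS (-0.83) and Rps4y2 was lower in female IDch against ID (-0.97). Rps29, a standard small-subunit protein with few counts, was at 0.578 to 1.05 CPM in female ID and 0.903 to 1.55 CPM in IDch, higher at the criterion by 0.80 in IDch against ID and by 0.67 in IDch against ISch.

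Tests over all 4 diet groups of a batch called 8 of 77 members in males, beside 0.748% of all genes, and 7 of 83 in females, beside 5.34% of all genes, with an adjusted p under 0.05. The male count rested on single libraries: leaving out 1 of the 16 gave 11 without IS 1, 5 without IS 3 and 1 to 4 in the other 14 cases. The male rows included Rpl12, Rpl17, the Rpl21 rows ENSRNOG00000000957 and ENSRNOG00000032803, Rps9, Rps10l1 and Rps28, with edgeR adjusted p-values from 0.0166 to 0.0499. The female rows were Rpl12, Rpl17, Rpl30, Rps10, Rps10l1 and both rows of Rps27a, with edgeR adjusted p-values from 0.00855 to 0.0169. The interaction of iron and choline called 0 members in either batch by edgeR's adjusted test, as it called 0.00699% of all genes in males and 0.00668% in females. At an unadjusted p under 0.05 there were 19 male members, beside 15.4% of all genes, and 5 female members, beside 9.18% of all genes. No other tool was run on the interaction. The difference of effect between batches was called for 4 of 82 members in ISch against IS (Rpl17, Rpl21, Rpl30 and Rps10), beside 1.28% of all genes, and for 2 of 83 members in iron deficiency with choline against IS (Rpl30 and Rps10l1), beside 0.362% of all genes.

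Genes of related function were listed for comparison. Ribosomal proteins outside the symbol pattern included Fau, a fusion of a ubiquitin-like protein with a small-subunit protein, and Rpl36al, a paralogue of Rpl36a. In male FIDch against FID both were higher at the criterion, Fau by 0.42 in log2 (edgeR adjusted p = 0.0472) and Rpl36al by 0.32 (edgeR adjusted p = 0.136), and in the 5 female comparisons neither was at the criterion. Of 35 translation factors tested in male FIDch against FID, 2 were higher and 3 lower, with 0 adjusted calls, the largest being Eif3j (-0.32) and Eif1ax (-0.29). Of 39 ribosome biogenesis genes 2 were higher and 3 lower, and Npm1, a nucleolar chaperone, fell by 0.29 (edgeR adjusted p = 0.0486). Of 72 mitochondrial ribosomal proteins, which serve a separate ribosome, 2 were higher and 1 lower, with 0 adjusted calls. In male FID against IS the 3 lists had 0, 0 and 1 genes higher and 0, 2 and 4 lower. In female ISch against IS the elongation factor Eef1a1 fell by 0.25 (edgeR adjusted p = 0.0164) and Nop56, of the small nucleolar particles, fell by 0.27 (edgeR adjusted p = 0.0249).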

How the data were processed

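Hippocampal RNA-seq of 16 male and 16 female rats was deposited as a table of raw counts per gene for each batch. Per the submitters' processing notes the authors used FastQC, Trimmomatic, HISAT2, featureCounts of Subread and the Rnor_6.0 build to make these counts; strand and multi-mapping settings were not given in the sources used here. Group labels came from the sample titles, and 0 columns belonged to no sample. Rows were read by symbol and Ensembl identifier and never summed except where a sum is named.

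Tests used edgeR 4.0.16 in R 4.3.3: TMM scaling, the default filter on low counts and the quasi-likelihood test for each pair of groups, for 4 groups, for the iron by choline interaction and, over both batches, for the difference of effects. The criterion of the study (absolute log2 fold change over 0.2, p under 0.05) was kept, with Benjamini-Hochberg values over all genes. On simulated counts with the means of male FID against IS (13721 genes), 4.35% of unchanged genes met the criterion, and 85.7%, 97% and 100% of genes changed by 0.5, 1 and 2 in log2 met it. An adjusted p under 0.05 was reached by 46%, 83.3% and 100% of these changed genes and by 0.0517% of unchanged genes. Row shares within a symbol were compared by exact permutation tests. Alternatives were DESeq2 1.42.0, other scaling, no filter, 1 fit of 4 groups, a replicate block, each library left out and the libraries with names of another form left out. Replicate libraries of a group differed by more than sampling noise in all 48 pairs (chi-square per gene 2.02 to 25.2), so each counted as 1 sample.

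Members, lists and tests were chosen with earlier results of these data known. Rows named are those with an adjusted p under 0.05 in any test, the 3 with the largest change at the criterion per comparison, the 5 with the most counts per batch, every row of a symbol with several rows, the paralogues, Rpl17 and Rps9. Pairs such as Rps10 and Rps10l1 were set together after their values were seen. Promoter windows were taken from RefSeq (GRCr8), and no coordinates of the count tables' build were used. Some items are not reported here.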

Additional observations from a re-analysis of the deposited data

Results flagged for a closer look

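Libraries far from the other 3 of their group (by Dixon's ratio at its 95% limit) were looked for in 289 groups of 4 libraries over the 43 rows named, and 23 were found; chance flags about 1 in 20 such groups. Their levels are in TMM-scaled CPM. Of these, 7 high values came from female IDch 4, the library with the highest blood marker sum: Rpl10a at 107.5, Rpl3 at 448.1, Rpl41 at 245.6, Rpl5 at 309.1, Rps14 at 145.9, Rps15 at 169.0 and Rps21 at 94.7, whereas Rpl30 was low there at 37.33. Whether the blood transcripts have a part in this was not tested.

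Rpl30 was also far from its group in female ID 4 (6.294) and male IS 1 (48.46), and Rps9 in female IS 4 (28.55), male FID 3 (8.71), male ISch 3 (9.533) and male FIDch 1 (2.024). Rplp2 reached 23.0 in female IDch 3. Rplp1 reached 157.8 in male IS 1 and 123.1 in male FIDch 1. Rpl41 was low in male FIDch 2 (101.8) and Rpl22l1 in male ISch 4 (28.72). The Rpl7a row ENSRNOG00000049097 reached 18.52 in female IS 3, Rps27l reached 6.626 in female ID 3 and 6.335 in male FID 1, and Rps29 reached 1.046 in female ID 2.

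Effects that differed between batches, as female minus male log2 differences from the edgeR quasi-likelihood test, were 1.944 for Rps27a ENSRNOG00000034246 after iron deficiency (adjusted p = 0.000534). For ISch against IS they were 0.5605 for Rps10 (adjusted p = 0.0407), 0.4173 for Rpl21 ENSRNOG00000000957 (0.0366), 1.449 for Rpl17 (0.00473) and 2.873 for Rpl30 (0.0224). For iron deficiency with choline against IS they were 3.392 for Rpl30 (1.06e-06) and -1.498 for Rps10l1 (0.0211). Sex and batch cannot be told apart in them.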

How the results depend on the processing

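None of the 26 adjusted calls of a row in a comparison reversed its direction under the alternatives run. Medians over the members did change sign with 1 library left out in male ISch against IS (-0.12 to 0.02), male FIDch against IS (-0.06 to 0.09), female ID against IS (-0.02 to 0.03), female IDch against IS (-0.00 to 0.10) and female IDch against ISch (-0.03 to 0.07). Counts of members at the criterion moved by over 1.5 times in these: male ISch against IS gave 25 members with every gene of at least 1 count kept (16 with the filter), and female IDch against ISch gave 4 with 4 groups in 1 fit and 0 with DESeq2 (2 otherwise). The male test over 4 groups gave 13 with every gene kept and 5 with a replicate block (8 otherwise). With mitochondrially encoded genes out of the denominator, the member share of counts was 0.678%, 0.647%, 0.611% and 0.666% in male IS, ISch, FID and FIDch, and 0.974%, 1.001%, 0.972% and 1.04% in female IS, ISch, ID and IDch. With 1 library left out, counts ranged from 3 to 36 in male FID against IS, 12 to 24 in FIDch against IS, 5 to 11 in FIDch against ISch, 3 to 8 in female ID against IS, 5 to 9 in ISch against IS, 0 to 4 in IDch against ISch and 1 to 11 in the male 4-group test. Differences in row share ranged from 1.66 to 2.05 percentage points (Rpl21, male ISch against IS), 2.35 to 2.84 (FIDch against IS), 2.71 to 3.19 (FIDch against FID), 24.2 to 27.3 (Rps27a, female ID against IS) and -24.9 to -20.4 (IDch against ID), and with 3 libraries against 4 the two-sided p, taken as double the smaller tail, cannot be under 0.05.

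Replicate numbers did not pair the samples (correlations of same-numbered deviations -0.191 to 0.25). A replicate block left 25 members at the criterion in male FIDch against FID (26 without it) but 1 adjusted call in place of 12. Of the 26 pairs of a row and a comparison with an adjusted call, 7 kept it in all 8 leave-outs and 19 lost it in at least 1; library size alone lost 0, the replicate block 16, 1 fit of 4 groups 5, and leaving out the libraries with names of another form 6 of the 15 it touches. The filter on low counts left out 14 of 91 rows in males and 8 in females.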

Other observations

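Across the 16 libraries of a batch, levels of most member rows followed the summed counts of all member rows, a sum that includes the row itself. Levels and sum were taken on the log2(CPM + 1) scale, and the mean of each diet group was subtracted from both. The median Pearson correlation was 0.818 over 77 male rows and 0.826 over 83 female rows, against 0.0127 and 0.0126 over all genes. Each row is part of the sum, and row and sum share the depth and TMM scaling of a library, so this is a description. Rows most like the sum were Rpl35 (0.964), Rpl14, Rps27, Rpl4 and Rps7 in males and Rpsa (0.958), Rpl28, Rpl27a, Rps23 and Rpl31 in females. Rps9 was the least like it in males (-0.206), and Rpl39l (-0.523) and Rps9 (-0.425) in females. Among other genes, those most like the sum were Sod1 (0.961), Cltb (0.961), Snx3, Aamp and Atp5f1b in males and Nme2 (0.965), Fau (0.958), Eml2, Gamt and Gstp1 in females.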
